A study of Mus musculus with 8 samples.

Results

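Wnt feedback inhibitors are genes whose products damp Wnt signalling, and several of them are themselves switched on by the pathway. The 9 genes described here, Notum, Axin2, Nkd1, Znrf3, Rnf43, Wif1, Dkk2, Dkk3 and Apcdd1, were taken as a named list. This list was chosen with earlier results of these data known, so the standing of its members among all genes is a description and no test. All probe sets that the platform annotation assigns to these genes alone were used, which gave 20 of the 45101 probe sets and 9 of the 18194 genes with a probe set of their own. RNA was measured with 8 Affymetrix arrays of small intestine from C57BL/6 mice on the AIN-76 diet, and every mouse carried Apc (Min/+), the mutation that gives rise to intestinal tumours, together with Spint1 (flox/flox). Spint1 encodes HAI-1, a membrane-bound inhibitor of serine proteases. In the HAI-1 deficient mice, labelled KO, a Cre transgene under the villin promoter (Vil-Cre) deleted the gene in intestinal epithelial cells, so that other cells of the tissue keep it, while control mice had the floxed alleles without Cre. The 4 groups, of 2 arrays each, were HAI-1 deficient tumours, control tumours, HAI-1 deficient non-tumour mucosa and control non-tumour mucosa. Whether each array stands for a separate mouse, and whether tumours and mucosa of a genotype share mice, is not stated in the labels, so p-values measure only the spread between these arrays.

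Wnt proteins bind Frizzled receptors with the co-receptors LRP5 and LRP6, which stops a cytoplasmic complex of APC, Axin and kinases from marking beta-catenin for destruction. Beta-catenin then enters the nucleus and, with TCF/LEF factors, switches on target genes, which in the intestine keep crypt stem cells dividing. Loss of APC function leaves the complex inactive without a Wnt signal. The members act at different levels of this chain. Notum is a secreted enzyme that removes the lipid that Wnt proteins need for binding, Wif1 binds Wnt proteins, and Dkk2 binds the LRP co-receptors. Znrf3 and Rnf43 are membrane ubiquitin ligases that take Frizzled receptors off the cell surface, and Apcdd1 is a membrane glycoprotein that inhibits Wnt signalling. Axin2 is a scaffold of the destruction complex and Nkd1 binds Dishevelled inside the cell. Dkk3 belongs to the Dickkopf family by sequence, but its action on Wnt signalling is less settled.

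Promoter sequence was looked up because several members moved together across the arrays. RefSeq windows of build GRCm38.p6 were matched for Axin2, Nkd1, Rnf43, Wif1 and Dkk2, with 6 starts in all, and the 250 bases before each start were searched on both strands for CAAAG, the core of the TCF/LEF motif, and for the longer TCAAAG, which contains it. The windows of Nkd1 and Dkk2, which rose in control tumours, and of Axin2, which did not pass the test there, are shown 5′ to 3′ with any CAAAG or its reverse complement CTTTG in capitals. They are the plus strand at chr8:88527383-88527632 (Nkd1), chr3:132085042-132085291 (Dkk2) and chr11:108920099-108920348 (Axin2). The annotated genes begin at chr8:88521342 (Nkd1) and chr11:108917828 (Axin2), so these windows of Nkd1 and Axin2 lie inside the gene. The bases before the annotated beginning of Nkd1 and Axin2 were not searched.
Nkd1: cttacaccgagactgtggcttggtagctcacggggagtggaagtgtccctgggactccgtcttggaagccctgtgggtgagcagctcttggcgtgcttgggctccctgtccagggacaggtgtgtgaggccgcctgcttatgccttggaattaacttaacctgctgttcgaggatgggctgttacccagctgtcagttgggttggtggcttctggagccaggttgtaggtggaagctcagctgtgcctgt
Dkk2: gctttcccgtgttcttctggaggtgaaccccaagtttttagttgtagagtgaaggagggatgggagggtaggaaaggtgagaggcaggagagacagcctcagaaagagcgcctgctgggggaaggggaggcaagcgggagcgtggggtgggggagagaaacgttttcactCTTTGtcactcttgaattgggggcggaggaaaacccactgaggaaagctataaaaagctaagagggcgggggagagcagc
Axin2: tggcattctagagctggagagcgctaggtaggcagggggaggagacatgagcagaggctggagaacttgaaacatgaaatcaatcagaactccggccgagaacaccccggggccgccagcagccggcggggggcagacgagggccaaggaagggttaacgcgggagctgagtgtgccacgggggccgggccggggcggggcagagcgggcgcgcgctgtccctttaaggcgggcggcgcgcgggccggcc
The core lay in 2 of the 6 windows, in Dkk2 at 80 bases before the start and in Wif1 at 161 bases before it, whereas 48.58% of the 32851 promoter windows in the table hold it. TCAAAG was in 0 of the 6 windows, against 13.83% of all windows. A match or its absence describes these letters in this window only.

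The values are log2 signals per probe set. The median signal per array was 5.84 to 6.35, and for each gene the probe set with the highest mean over the arrays was tested. A gene was tested where that mean reached 5.20, the 40th percentile of all probe sets, and this left 13119 genes. The 9 members were all tested, although Dkk2 lay under 5.20 on both control mucosa arrays and passed through the other groups. The targeted gene Spint1 was lower on every deficient array than on every control array of its tissue, with a log2 difference of -1.10 ± 0.24 in tumours and -0.58 ± 0.24 in mucosa (SE, n = 2 per group, limma adjusted p = 0.779 and 0.271). The 8 epithelial markers, among them Epcam, Cdh1 and Vil1, were all tested, and their summed linear signal was 140204 and 145007 in deficient tumours, 138435 and 149995 in control tumours, 140317 and 126019 in deficient mucosa, and 124403 and 129854 in control mucosa. The brightest probe sets weigh most in this sum, and single markers did move. In control tumours against control mucosa, Krt18 differed by 1.81 ± 0.22 log2 and Cdx2 by -0.78 ± 0.28 (limma adjusted p = 0.00231 and 0.0745). For Gapdh, the 3′ probe set over the 5′ one gave 25.9 on the second control tumour array, where the other 7 arrays gave 0.803 to 1.77. A high value of this ratio is a known sign of degraded RNA. For beta-actin the same ratio was 2.32 on that array and 1.15 to 1.52 on the other 7, so this second control stood out far less. The poly-A spike-in signal split the arrays into 3 with high signal (9.17 to 9.42), which are the second arrays of all groups but control tumours, and 5 with low signal (7.69 to 7.96). Differences within each spike-in class are given below where they bear on a result. The 18S ribosomal RNA probe sets read 14.60 on the second control mucosa array and 13.63 on the second deficient mucosa array. All other arrays gave 7.61 to 10.07, so arrays of the high spike-in class were not alike in this control.

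Notum, the secreted enzyme, had log2 signals of 10.96 and 11.55 in deficient tumours, 11.50 and 11.24 in control tumours, 9.67 and 9.94 in deficient mucosa, and 7.72 and 7.21 in control mucosa. Tumours of both genotypes were high and overlapped, deficient mucosa stood below them, and control mucosa was lowest, with no overlap between these 3 levels. In such bulk samples, fewer cells of a type and less RNA per cell cannot be told apart. Wif1, the Wnt-binding protein, had 9.84 and 9.67 in deficient tumours, 9.01 and 7.27 in control tumours, 6.67 and 9.40 in deficient mucosa, and 6.18 and 6.42 in control mucosa. Its arrays of control tumours and of deficient mucosa were far apart within each group. Dkk2, which blocks the co-receptors, had 7.20 and 7.51 in deficient tumours, 8.02 and 6.69 in control tumours, 5.61 and 6.24 in deficient mucosa, and 3.94 and 3.64 in control mucosa. Its order of groups was that of Notum, and its signals in control mucosa were below the filter value, where errors on the log2 scale are large. Dkk3 had 9.37 and 10.39 in deficient tumours, 9.71 and 9.38 in control tumours, 7.53 and 8.83 in deficient mucosa, and 5.89 and 6.28 in control mucosa. The same 3 levels were seen for Dkk3.

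Among the membrane members, Znrf3 had log2 signals of 10.13 and 10.74 in deficient tumours, 10.12 and 10.30 in control tumours, 9.09 and 9.91 in deficient mucosa, and 7.76 and 8.20 in control mucosa. The partner ligase Rnf43 had 10.28 and 11.21 in deficient tumours, 10.15 and 9.36 in control tumours, 8.93 and 9.24 in deficient mucosa, and 8.11 and 8.79 in control mucosa. Rnf43 spanned a narrower range than Znrf3 between control mucosa and control tumours, and its deficient tumours were both above the control ones. Apcdd1 had 8.47 and 9.69 in deficient tumours, 8.36 and 8.51 in control tumours, 7.71 and 9.25 in deficient mucosa, and 5.41 and 6.10 in control mucosa. Control mucosa alone stood apart for Apcdd1, while deficient mucosa overlapped both tumour groups.

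Of the intracellular members, Nkd1 had log2 signals of 10.12 and 12.08 in deficient tumours, 10.75 and 10.45 in control tumours, 8.26 and 9.56 in deficient mucosa, and 6.79 and 6.72 in control mucosa. Axin2 had 10.13 and 11.69 in deficient tumours, 10.69 and 10.24 in control tumours, 9.45 and 9.81 in deficient mucosa, and 9.25 and 9.39 in control mucosa. Both had their highest signal on the second deficient tumour array, and Axin2 differed little between the 2 mucosa groups. The second array was the higher one for 9 of 9 members in deficient mucosa and for 8 of 9 in deficient tumours, with Wif1 the exception, and both are arrays with high spike-in signal. In control tumours, where both arrays have low spike-in signal, the first array was higher for 7 of 9 members, and in control mucosa the second was higher for 6 of 9. The second control tumour array is also the one with the Gapdh ratio of 25.9. The part of RNA quality in the order of the control tumour arrays was not tested. The part of the spike-in class in the members' values was not tested beyond the within-class differences. The array order of all tested genes was not counted, so these counts cannot show whether the order is particular to the members.

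**Figure D1:**
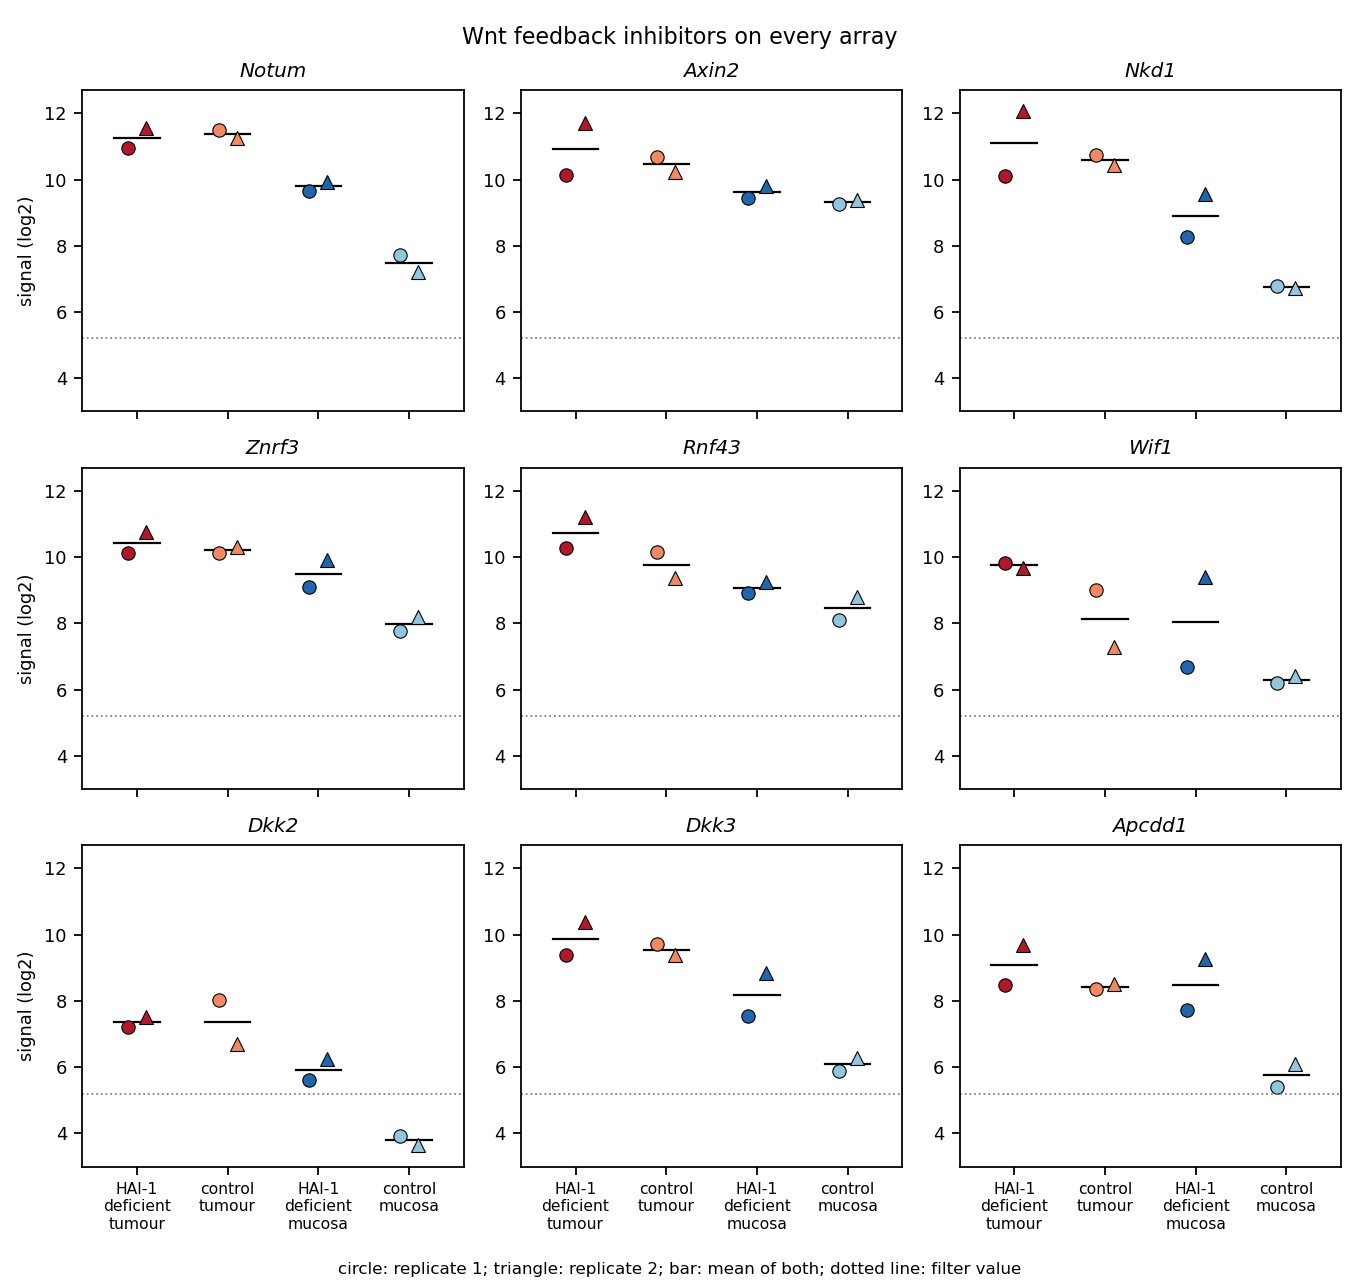
Log2 signal of the tested probe set of each member (y axis) on the 8 arrays by group (x axis), with circles for replicate 1, triangles for replicate 2 and a bar for the group mean; the dotted line is the filter value of 5.20. Control mucosa is lowest for all 9 members, and both deficient mucosa arrays lie between the control mucosa and control tumour arrays for 7 of them, Wif1 and Apcdd1 being the others.

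Tumours of control mice were set against control mucosa to show how the members follow tumour formation where HAI-1 is kept. Of the 9 members 6 rose, and 9 of 9 had both tumour arrays above both mucosa arrays. Over all tested genes 21.2% were called higher and 7.64% lower, while 45.3% had groups that did not overlap in the upward direction and 23.6% in the downward one. The largest rises were those of the secreted enzyme Notum, at 3.90 ± 0.31 log2 (SE, n = 2 per group, limma adjusted p = 0.000867), and of the Dishevelled-binding Nkd1, at 3.84 ± 0.65 or 14.4-fold (0.00602). Dkk3 rose by 3.46 ± 0.49 log2 or 11.0-fold (adjusted p = 0.00363). Dkk2, the LRP ligand, rose at least 4.46-fold with its mucosa arrays raised to the filter value (adjusted p = 0.00248 for the fitted value). Apcdd1 rose by 2.68 ± 0.58 log2 or 6.40-fold (adjusted p = 0.0139) and Znrf3 by 2.23 ± 0.36 or 4.70-fold (0.00539). The other ligase, Rnf43, differed by 1.30 ± 0.43 log2 (adjusted p = 0.0565), Wif1 by 1.84 ± 0.86 (0.150) and Axin2 by 1.14 ± 0.48 (0.116), and these 3 did not pass. The median of the 9 members was 2.68 log2, or 2.23 with the mucosa arrays of Dkk2 raised, against 0.24 over all tested genes. Fitted medians of cell type markers were 3.38 for fibroblasts, 3.33 for smooth muscle and 1.67 for subepithelial mesenchyme, against 0.02 for epithelium and -0.59 for enterocytes. The call of Apcdd1 ended without the first control mucosa array (adjusted p = 0.0766) and without the first or second control tumour array (0.0564 and 0.0662), and with the mean of its probe sets (1.24 log2, 0.0690). Rnf43 (0.0429) and Axin2 (0.0264) passed without either deficient tumour array, and with the spike-in class in the fit they passed at 1.62 and 1.49 log2 (adjusted p = 0.0228 and 0.0485).

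In HAI-1 deficient mice, tumours were compared with deficient mucosa, which shares no array with the comparison in controls. Notum alone rose, by 1.46 ± 0.31 log2 or 2.74-fold (SE, n = 2 per group, limma adjusted p = 0.0486), where 2.45% of all tested genes were called higher and 1.75% lower. For 8 of 9 members both tumour arrays were above both mucosa arrays, the exception being Apcdd1, and the share over all tested genes was 36.6%, with 18.9% in the other direction. The median member difference was 1.46 log2, against 0.18 over all tested genes. The values that did not pass ran from 0.60 ± 0.58 for Apcdd1 (adjusted p = 0.560) to 2.19 ± 0.65 for Nkd1 (0.0977), with 1.70 ± 0.49 for Dkk3, 1.66 ± 0.43 for Rnf43 and 1.28 ± 0.48 for Axin2. For Axin2 and Rnf43, the values in control mice were 1.14 ± 0.48 and 1.30 ± 0.43. The call of Notum ended without any 1 of the 8 arrays (adjusted p = 0.0656 to 0.190, at 1.16 to 1.75 log2) and with the spike-in class in the fit (0.0649), where Dkk3 passed in its place (1.70 log2, 0.0473). Within the high spike-in class, with 1 array per group and no test, the 9 differences were 0.27 to 2.52 log2, and within the low class 0.68 to 3.16. For the 8 members without overlap, the positive sign of these values was already given by the array order.

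**Figure D2:**
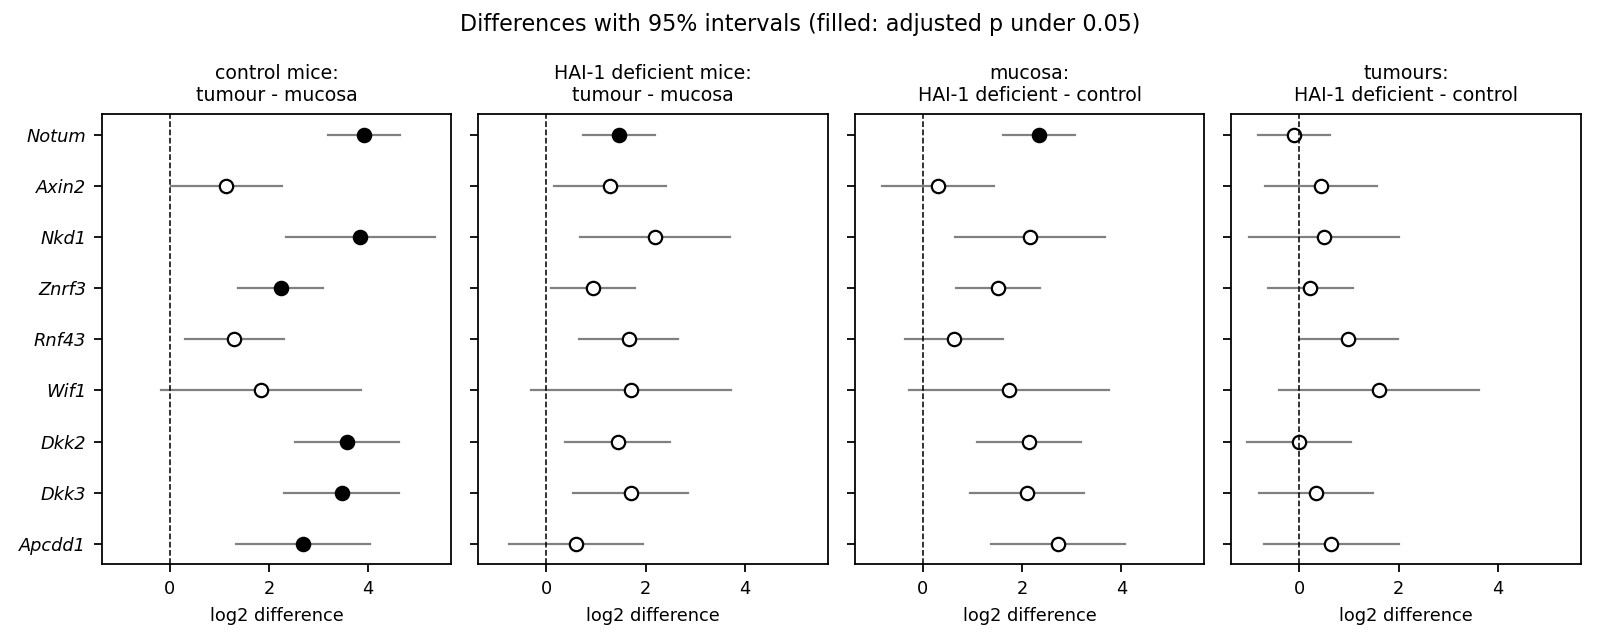
Log2 difference of each member (rows) in 4 comparisons (panels), with 95% intervals of the limma fit, n = 2 arrays per group; filled points have an adjusted p under 0.05. Values of Dkk2 against control mucosa are fitted ones that rest on arrays under the filter value. There are 6 filled members in control mice for tumour against mucosa, Notum alone in the next 2 panels, and none for deficient against control tumours.

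HAI-1 loss in non-tumour mucosa was assessed by setting deficient against control mucosa. For 9 of 9 members both deficient arrays were above both control arrays, a pattern that 30.9% of all tested genes showed, with 17.3% the other way. Notum was the only member called, at 2.33 ± 0.31 log2 or 5.04-fold (SE, n = 2 per group, limma adjusted p = 0.0348), among 0.899% of tested genes called higher and 0.152% lower. The largest difference was that of Apcdd1, at 2.73 ± 0.58 log2 (adjusted p = 0.0719), which did not pass. Nkd1 differed by 2.15 ± 0.65 (adjusted p = 0.149), Dkk3 by 2.10 ± 0.49 (0.0877), Wif1 by 1.73 ± 0.86 (0.362) and Znrf3 by 1.52 ± 0.36 (0.0902). Dkk2 was at least 1.65-fold higher with its control arrays raised to the filter value (adjusted p = 0.0710 for the fitted value). Rnf43 and Axin2 had the smallest differences, at 0.63 ± 0.43 and 0.30 ± 0.48 log2, with 95% intervals of -0.37 to 1.62 and -0.82 to 1.43. The median of the 9 members was 2.10 log2, or 1.73 with the control arrays of Dkk2 raised to the filter value, against 0.11 over all tested genes. Fitted medians of cell type markers were 1.47 for subepithelial mesenchyme, 1.21 for fibroblasts, 0.94 for smooth muscle and 0.75 for endothelium. They were 0.08 for epithelium, 0.01 for enterocytes and -0.50 for leukocytes. The part of these cell types in the members' differences was not tested. Notum, Apcdd1, Nkd1 and Dkk3 stood at the 98.5th to 99.5th percentile of differences, which describes genes chosen with earlier results of these data known.

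The Notum difference was 2.72 log2 within the high and 1.94 within the low spike-in class, each with 1 array per group and no test. Its call ended without either deficient or either control mucosa array (adjusted p = 0.0678 to 0.151), without either control tumour array (0.0669), without the filter (0.130) and in a fit of the 2 mucosa groups alone (0.0611). Apcdd1 passed in 5 of the alternatives, among them the fit with a spike-in term (adjusted p = 0.0305). Wif1 differed by 2.98 log2 within the high and 0.49 within the low class, and Axin2 by 0.42 and 0.19. All 9 members had positive differences in both classes, which follows from the lack of overlap between the groups and is no separate check.

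**Figure D3:**
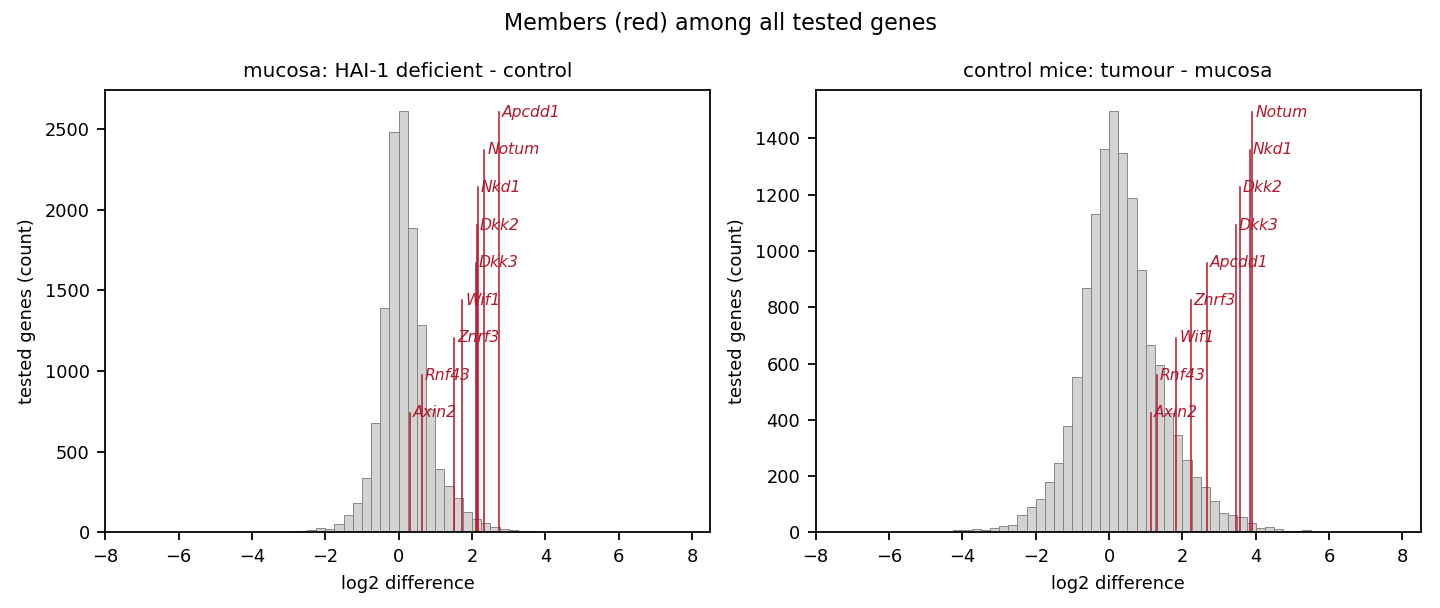
Histograms of the log2 difference of all 13119 tested genes (y axis, count of genes), with the 9 members as red lines whose height has no meaning, for deficient against control mucosa and for control tumours against control mucosa. In mucosa 4 members measured above the filter value lie beyond 2 log2 and Axin2 lies inside the bulk at 0.30, while the line of Dkk2 is drawn at a fitted value that rests on control arrays under the filter value. The panels share the control mucosa arrays.

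Deficient mucosa was also set against control tumours, to place it relative to tumours that keep HAI-1. For 7 of 9 members both mucosa arrays were below both tumour arrays, a pattern found for 38.7% of tested genes (22.3% lay the other way), and Wif1 and Apcdd1 overlapped. Notum was lower in deficient mucosa by 1.57 ± 0.31 on the log2 scale (SE, n = 2 per group, limma log2 difference -1.57, adjusted p = 0.0338), and was the only member among the 4.38% of tested genes called lower, with 2.16% called higher. Nkd1 differed by -1.69 ± 0.65 log2 (adjusted p = 0.142), Dkk2 by -1.44 ± 0.45 (0.0937) and Dkk3 by -1.36 ± 0.49 (0.129), none of which passed. Apcdd1 differed by 0.05 ± 0.58 (adjusted p = 0.969), with a 95% interval of -1.31 to 1.40, so a difference in either direction of more than 2-fold is within its error. The call of Notum ended without either deficient mucosa array (adjusted p = 0.148 and 0.0914) and without either control tumour array (0.123 and 0.115). It also ended without the filter (0.0986) and with the spike-in class in the fit (0.0649). Within the low spike-in class, which holds 1 deficient mucosa and 2 control tumour arrays, all 9 differences were negative, from -2.34 for Nkd1 to -0.72 for Apcdd1. For the 7 members without overlap, the negative sign was already given by the array order.

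Tumours with and without HAI-1 were compared to see whether the members depended on the inhibitor within tumours. None of the 9 members was called by limma and 0 had an unadjusted p under 0.05, while 0% of all tested genes were called in either direction and 802 had an unadjusted p under 0.05. Notum differed by -0.12 ± 0.31 log2 (SE, n = 2 per group, adjusted p = 0.934), with a 95% interval of -0.84 to 0.61. Dkk2 had a 95% interval of -1.05 to 1.05, Znrf3 of -0.62 to 1.07 and Axin2 of -0.68 to 1.57. Rnf43 and Wif1 were higher on both deficient arrays than on both control arrays, by 0.99 ± 0.43 and 1.61 ± 0.86 log2 (adjusted p = 0.779 each), a pattern that 18.6% of tested genes showed, with 19.4% lower without overlap. Wif1 was 9.01 on the first control tumour array and 7.27 on the second, which is the array with the high Gapdh ratio. Over all arrays 7 of the 9 differences were positive, with a median of 0.45 log2 against -0.01 over all tested genes. Within the low spike-in class, which leaves out the second deficient tumour array, 6 of the 9 differences were negative, and they ran from -0.48 for Nkd1 to 1.69 for Wif1.

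The interaction, which is the HAI-1 effect in tumours minus that in mucosa, was called by limma for 0 of 9 members and 0% of tested genes. An unadjusted p under 0.05 was found for 5 members and for 1211 genes, or 9.23% of those tested. The interaction was negative for 7 members and its median was -1.65 log2, or -1.29 with low values raised to the filter value, against -0.12 over all tested genes. With each probe set fitted on its own, it was positive for 46.1% of all 23065 probe sets and for 3 of the members' 18. Marker lists of other cell types also had negative medians, at -1.69 for fibroblasts (6 of 9 at an unadjusted p under 0.05, 0 called by limma) and -1.14 for subepithelial mesenchyme (3 of 5, 0 called), and their part in the members' values was not tested. The interaction of Notum was -2.45 ± 0.44 (SE, adjusted p = 0.254), that of Apcdd1 -2.08 ± 0.82 (0.506), that of Dkk3 -1.76 ± 0.70 (0.506) and that of Znrf3 -1.29 ± 0.51 (0.506). The unadjusted 95% intervals of these 4 lay below 0. The fitted value of Dkk2, -2.13, rests on control mucosa arrays under the filter value, and with these raised it was -0.72 ± 0.60 (adjusted p = 0.759). The interval of Axin2, at 0.14 ± 0.68, ran from -1.45 to 1.74. A smaller effect of HAI-1 loss on these genes in tumours than in mucosa is therefore not shown at the adjusted threshold.

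Several members have more than 1 probe set, and 18 of the 20 passed the filter. In control mice, 12 of the 18 were called higher in tumours than in mucosa when each was fitted on its own among 23065 probe sets, and 17 had a positive difference. Over all 23065 probe sets, 15% were called higher and 55.4% were positive. Of the 4 probe sets of Nkd1, 3 were called, at 3.84, 3.26 and 2.05 log2, and the dimmest was at 1.04 ± 0.33 (SE, n = 2 per group, limma adjusted p = 0.0604). Both probe sets of Dkk3 (3.46 and 2.77) and of Znrf3 (2.23 and 1.85) were called. The 6 probe sets of Apcdd1 disagreed. Of these 3 were called, at 2.68, 2.62 and 1.64 log2, another was at 0.86 (adjusted p = 0.298), and one that read 2.39 on the second control tumour array was at -1.88 (0.136). The brightest Apcdd1 probe sets carry the suffix that the manufacturer gives to sets with probes shared with other sequences, so their signal may not come from Apcdd1 alone. The remaining Apcdd1 probe set and the second of Axin2 were too dim to test, with means of 3.85 and 3.96 log2. In deficient against control mucosa, all 18 tested probe sets were positive, from 0.30 for Axin2 to 2.73 for Apcdd1, and 0 were called by limma at this larger number of tests, where Notum had an adjusted p of 0.0588. Of all probe sets 57.8% were positive in this comparison and 0.0737% were called higher.

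**Figure D4:**
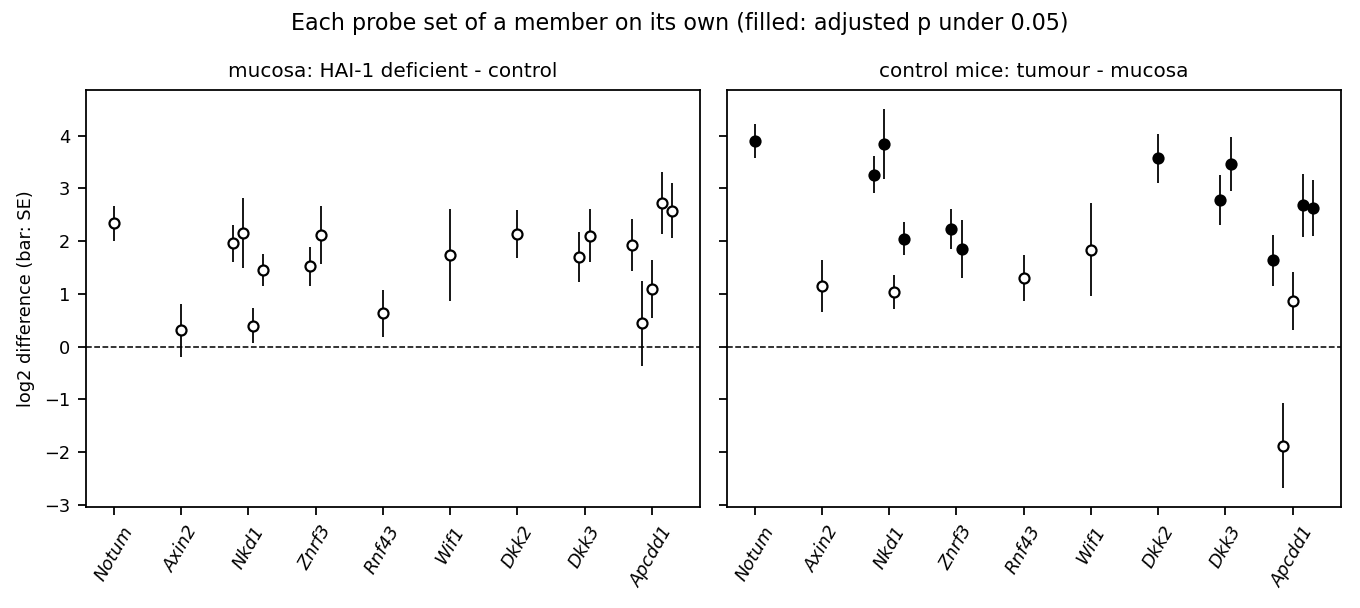
Log2 difference (y axis, bars are SE, n = 2 arrays per group) of each probe set past the filter, grouped by member (x axis), with filled points for an adjusted p under 0.05 among 23065 probe sets. All 18 are above 0 for deficient against control mucosa with none filled, and 12 are filled for control tumours against control mucosa, where one Apcdd1 probe set lies at -1.88.

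Across the 8 arrays the members correlated with each other in all 36 pairs, with Pearson's r from 0.71 (Axin2 with Wif1) through a median of 0.87 to 0.99 (Dkk3 with Znrf3). These correlations describe arrays that share tissue, genotype and spike-in class. Among the 13118 other tested genes, those most like Notum by Pearson's r over the 8 arrays were Dlc1 (0.999), Nme4 (0.996), Fermt2 (0.995), Krt23 (0.994) and Igfbp4 (0.994). Those most like Axin2 were Dip2b (0.984), Sestd1 (0.982), Ppp2r2a (0.979), Smarca5 (0.979) and Ttc30a1 (0.978). The 2 members had 0 of these genes in common.

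The rest of the pathway was examined with lists of ligands, receptors, other antagonists, cytoplasmic regulators, nuclear factors and targets. In control tumours against control mucosa, 11 of the 13 tested targets that are not inhibitors rose (median 2.24 log2), led by the stem cell receptor Lgr5 at 3.42 ± 0.48, the adhesion receptor Cd44 at 3.35 ± 0.28 and Tnfrsf19 at 3.13 ± 0.53 (SE, n = 2 per group, limma adjusted p = 0.00344, 0.000921 and 0.00606). Of 4 other secreted antagonists tested, the Frizzled-related Sfrp1 rose by 3.02 ± 0.38 log2 and Frzb at least 2.84-fold. Of 11 ligands and secretion factors, 3 rose and 1 fell. They were Wnt5a (2.89 ± 0.35), Wls (2.27 ± 0.31), which carries Wnt proteins to the surface, and Porcn, which adds their lipid (at least 4.47-fold), against the R-spondin Rspo2, which fell by 1.17 ± 0.35 log2. Of 18 receptors, 4 rose, among them Lgr5, Ror2 (at least 6.75-fold) and Fzd6 (2.90 ± 0.50). Lef1 alone rose among 6 nuclear factors (2.24 ± 0.51 log2). Of 15 cytoplasmic regulators 0 rose and Ctnnbip1, which keeps beta-catenin from TCF factors, fell by 1.31 ± 0.27 log2. Over all tested genes 21.2% were called higher and 7.64% lower in this comparison, so the counts of each list are to be read beside these shares.

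In deficient against control mucosa, 0 genes of these 6 lists were called by limma, with 10 entries at an unadjusted p under 0.05, which is 14.9% of the 67 tested entries and no more than the 17.5% of all tested genes at that level. The other targets had a median of 0.90 log2 and no overlap between groups in 9 of 13, each time higher in deficient mucosa, where 30.9% of all tested genes were higher and 17.3% lower without overlap. Lgr5, whose groups overlapped, had log2 signals of 7.16 and 8.32 in deficient mucosa, against 7.18 and 7.09 in control mucosa. Among the 9 without overlap were Tnfrsf19 (2.17 ± 0.53 log2), Ephb3 (1.67 ± 0.46) and Cd44 (1.43 ± 0.28), with limma adjusted p of 0.0939, 0.117 and 0.0623. The 13 differences ran from 0.21 for Ccnd1 to 2.17 log2 for Tnfrsf19. Medians of the other 5 lists were 0.13 to 0.38 log2. In deficient mice, tumours against mucosa gave rises for Lgr5 (2.61 ± 0.48 log2), Sox9 (2.61 ± 0.42) and Cd44 (1.75 ± 0.28) among targets, for Lgr5 and Fzd1 (1.40 ± 0.23) among receptors and for Wls (1.86 ± 0.31) among secretion factors. Over all tested genes 2.45% were called higher there. Deficient mucosa was lower than control tumours for 4 of 13 targets, among them Lgr5 (-2.81 ± 0.48), Sox9 (-2.49 ± 0.42) and Cd44 (-1.92 ± 0.28), for Wls (-1.67 ± 0.31) and Wnt5a (-1.60 ± 0.35) and for Sfrp1 (-2.33 ± 0.38). Over all tested genes 4.38% were called lower and 2.16% higher in deficient mucosa than in control tumours. In deficient against control tumours 0 genes of the 6 lists were called by limma, as were 0% of all tested genes. There 8 entries had an unadjusted p under 0.05, which is 11.9% of the 67 tested entries, against 6.11% of all tested genes.

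The samples are whole tissue, so markers of other cell types were read beside the members. The summed linear signal of 9 fibroblast markers, all tested and none at the lowest value of 0 on any array, was 21560 and 22258 in deficient tumours, 32518 and 29138 in control tumours, 7711 and 6325 in deficient mucosa, and 5814 and 5787 in control mucosa. In control tumours against control mucosa 8 of these 9 rose and Fbln1 fell, where 21.2% of all tested genes were called higher and 7.64% lower. In deficient against control mucosa 0 were called by limma, with 8 at an unadjusted p under 0.05 and with 6 higher and 3 lower without overlap. Over all tested genes 17.5% had an unadjusted p under 0.05 there, and 30.9% were higher and 17.3% lower without overlap. The sum of 6 subepithelial mesenchyme markers was 1566 and 3043 in deficient tumours, 2019 and 1624 in control tumours, 1740 and 1254 in deficient mucosa, and 589 and 546 in control mucosa, with Foxl1 below the filter. Smooth muscle markers summed to 10781 and 5898 in deficient tumours, 7058 and 13288 in control tumours, 2445 and 1684 in deficient mucosa, and 1067 and 928 in control mucosa. The endothelial sum was 1393 and 2669 in deficient tumours, 1798 and 1093 in control tumours, 937 and 1245 in deficient mucosa, and 440 and 392 in control mucosa. Of the 5 tested endothelial markers Tek was called higher in deficient than in control mucosa, at least 4.64-fold (adjusted p = 0.0348 for the fitted value). In that comparison 0.899% of all tested genes were called higher. Of the 6 tested enterocyte markers, Lct, Anpep and Slc5a1 fell in control tumours against control mucosa and 3 did not pass. Anpep and Slc5a1 fell in deficient tumours against deficient mucosa, where 1.75% of all tested genes were called lower. The enterocyte sums were 78566 and 106235 in deficient tumours, 95512 and 106047 in control tumours, 149103 and 130897 in deficient mucosa, and 140102 and 139825 in control mucosa. Leukocyte sums were 3496 and 2392 in deficient tumours, 5222 and 5756 in control tumours, 4474 and 2756 in deficient mucosa, and 6147 and 4746 in control mucosa. The part of these cell types in the members' values was not tested.

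**Figure D5:**
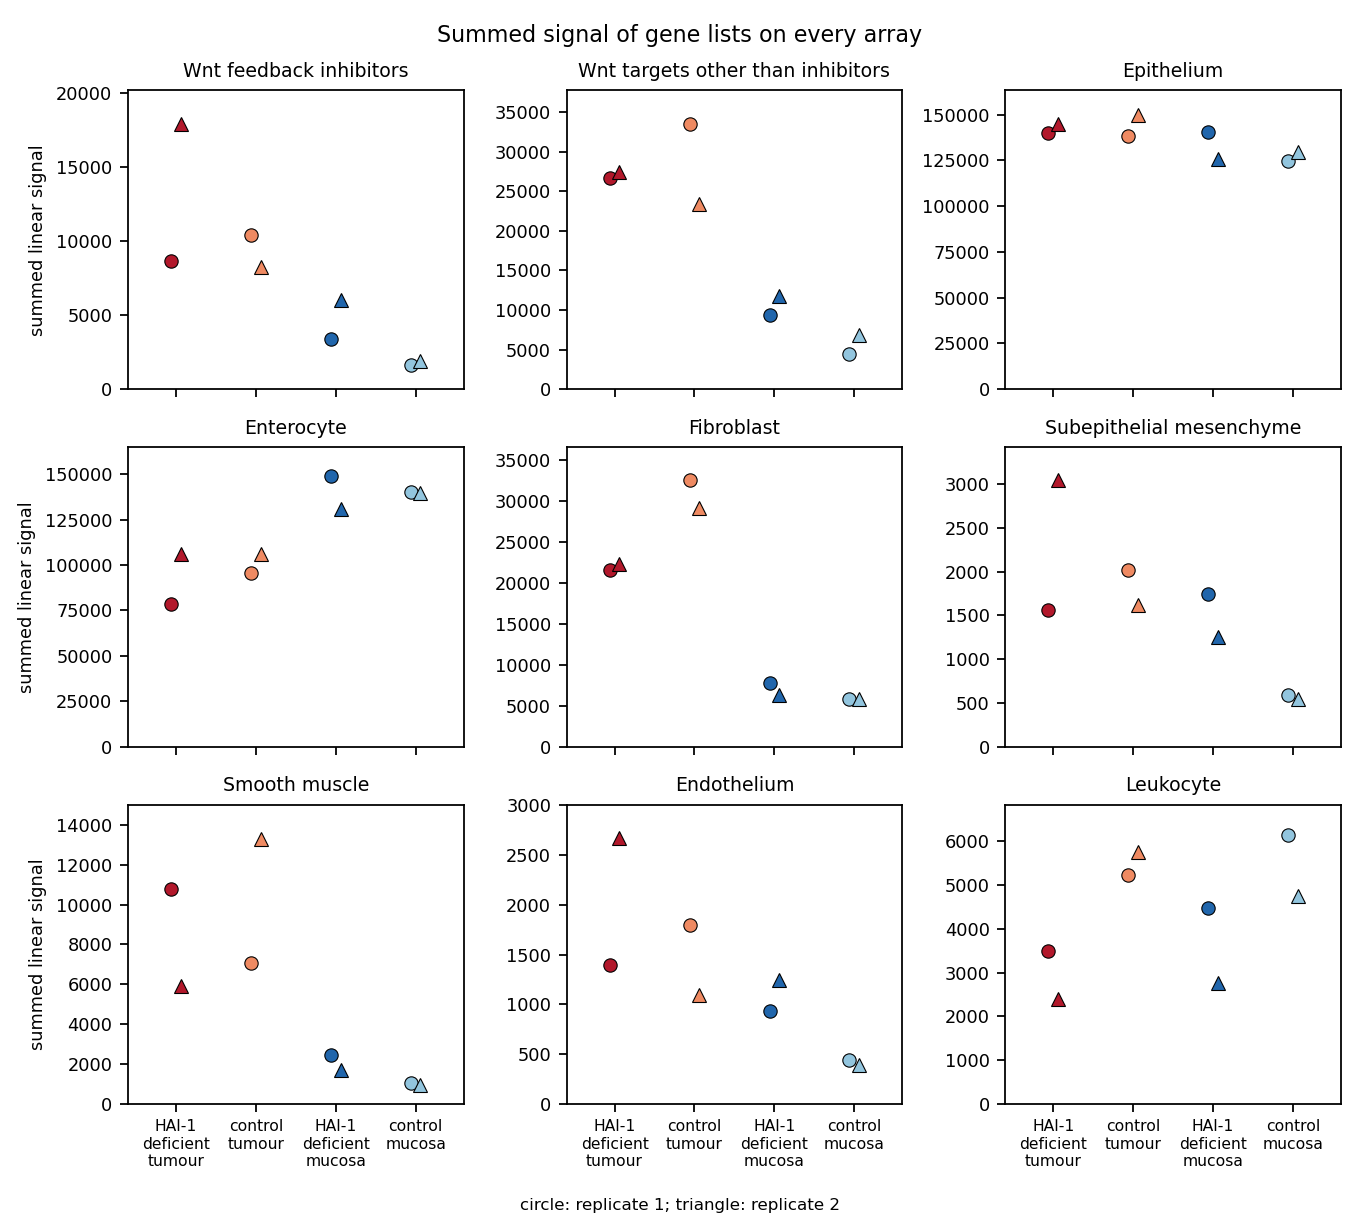
Summed linear signal (y axis, from 0) of the members, of the other Wnt targets and of 7 marker lists on the 8 arrays by group (x axis), with circles for replicate 1 and triangles for replicate 2; bright probe sets weigh most in a sum. Epithelial sums lie between 124403 and 149995, and fibroblast sums are at least 21560 in tumours and at most 7711 in mucosa. Fibroblast, mesenchyme, smooth muscle and endothelial sums are higher on both deficient mucosa arrays than on both control mucosa arrays.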

How the data were processed

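Processed values of 8 Affymetrix arrays, in 4 groups of 2, were used as deposited. The authors deposited 1 log2 value per probe set and array. Per the submitters' processing notes, the tools were MAS5 and RMA. Their versions and what each did are not stated in the sources. In the values themselves, the mean linear signal after trimming 2% at each end was the same on every array to within rounding, while medians differed (5.84 to 6.35), so the arrays were scaled but not quantile normalized. The number of arrays, 2 per group, limits the precision, and no detection calls were used. Probe sets were named with the platform annotation, updated to GRCm38.p6 symbols by gene identifier.

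With R 4.3.3 and limma 3.58.1, group means were estimated from the 8 arrays together, on 1 probe set per gene with a mean of at least 5.20 (the 40th percentile). The fit had 4 residual degrees of freedom and a prior of 3.52. The 6 contrasts were tested two-sided, with Benjamini-Hochberg adjustment over 13119 genes within a contrast, and genes were called at an adjusted p under 0.05. The fit was tested on simulated data, but no outcome is given here and no call rests on that test. Where arrays lay under 5.20, folds are given with those arrays raised to it, as at least so much. Alternatives were quantile normalization, no filter or the 60th percentile, the mean of probe sets or each on its own, a mean-variance trend, low values raised, the compared groups alone, the replicate number or spike-in class as a term, and leaving out each array. Members and lists were chosen with earlier results of these data known. The 9 members were named throughout, with up to 3 called genes per direction of each pathway list and the 5 genes most like Notum and Axin2. Figures were drawn with matplotlib 3.10.9 in python 3.11.15.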

Additional observations from a re-analysis of the deposited data

How the results depend on the processing

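The count of members called in control tumours against control mucosa, 6 as reported, was 5 to 8 with 1 array left out and 5 to 8 in the other alternatives. In deficient against control mucosa the count of 1 became 2 with the 60th percentile filter (which removed Dkk2), with low values raised and with the replicate block, 3 with a mean-variance trend and with the spike-in term, and 0 without the filter, with the mean of probe sets, with each probe set on its own and with the compared groups alone. In deficient tumours against deficient mucosa the count of 1 became 2 with the 60th percentile filter, with a trend and with low values raised, and 0 under quantile normalization, no filter, the mean of probe sets, each probe set on its own, the compared groups alone and the replicate block. With the spike-in term its 1 call was Dkk3 in place of Notum. In deficient mucosa against control tumours the count of 1 became 0 without the filter, and with the spike-in term the 1 call was Dkk3 (-1.81 log2, adjusted p = 0.0481) in place of Notum (-1.63, 0.0649). With 1 array left out these 3 counts were 0 to 1, 0 and 0 to 1, where a lone array is assumed to vary like the other groups. The counts of 0 for deficient against control tumours and for the interaction stayed 0 in every alternative.

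The replicate numbers are not shown to pair arrays, since the deviations of same-numbered arrays correlated at -0.13 to 0.22 over the 6 pairs of groups. With the replicate block the counts were 2, 0, 6, 1, 0 and 0 for deficient against control mucosa, deficient tumours against mucosa, control tumours against mucosa, deficient mucosa against control tumours, deficient against control tumours and the interaction. Of the 966 single-member values under alternatives, 882 kept direction and side of the threshold, 35 lost and 22 gained a call, and 27 changed sign, each of these 27 for a value that was not called. With the spike-in term the deficient against control tumour value was -0.032 for Nkd1, -0.088 for Znrf3 and -0.11 for Dkk3, that of Apcdd1 in deficient mucosa against control tumours was -0.53, and the interaction of Axin2 was -0.20 (-0.14 with the mean of probe sets). With 1 array left out, signs changed in deficient against control tumours for Notum (-0.41 to 0.18), Axin2 (-0.34 to 1.23), Nkd1 (-0.48 to 1.48), Znrf3 (-0.084 to 0.53), Dkk2 (-0.67 to 0.66) and Dkk3 (-0.17 to 0.85), in deficient tumours against mucosa for Apcdd1 (-0.17 to 1.37), in deficient mucosa against control tumours for Wif1 (-1.47 to 1.26) and Apcdd1 (-0.72 to 0.82), and in the interaction for Axin2 (-0.64 to 0.92), Rnf43 (-0.11 to 0.82) and Wif1 (-1.49 to 1.24). The causes were not tested. Signals under 5.20, as for Dkk2 in control mucosa, limit what its folds can show.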
